A study of Mus musculus with 2 samples.

Results

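C1qa, C1qb and C1qc are the genes of the A, B and C chains of complement C1q, and their 3 rows were taken by name from a table of 31053 gene rows. The table counts transcripts by their unique molecular identifiers (UMIs, 1 per transcript caught) in single cells of the mouse optic nerve. Per the labels, the animals were wildtype mice of strain 129S1/SvlmJ and the cells were microglia or macrophages. In the injured group the nerve of mice of both sexes was crushed at an age of 8 weeks, and the cells came from these mice 2 weeks after the crush, when they were 10 weeks old. The uninjured group was of the same strain, genotype and age with no crush. Each group was 1 library, with 727 injured and 51 uninjured cells. The number of animals pooled and the way cells were chosen as myeloid are not given here. With 1 library per group there is no replicate check and no test: each bracketed range is an exact 95% interval, by Poisson for a level, Clopper-Pearson for a share and conditional binomial for a ratio, and covers counting error only.

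C1q is the recognition part of the first complex of the classical complement pathway. It is a hexamer of trimers, each built from one A, one B and one C chain with a collagen-like stalk and a globular head. The head binds immune complexes, dying cells and synaptic surfaces, and the stalk carries the proteases C1r and C1s, which start the cleavage of C4, C2 and C3. In the central nervous system microglia are the main source of C1q, and the chains are abundant in tissue macrophages, whereas lymphocytes do not make them.

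The 3 genes lie close together on the minus strand of chromosome 4 within 18.675 kb (mm10, GENCODE vM21, each protein-coding with 3 exons). C1qb (ENSMUSG00000036905.8) runs from 136880129 to 136886187, C1qc (ENSMUSG00000036896.5) from 136889804 to 136893065 and C1qa (ENSMUSG00000036887.5) from 136895917 to 136898803. Neighbours in the cluster are 3616 and 2851 bp apart, and other annotated genes between them were not looked for. The longest transcripts of the 3 genes are 1040 (C1qa), 1088 (C1qb) and 1203 (C1qc) bases. The sequence upstream of the start is shown for 2 of the 3 chains, those that matched the RefSeq promoter table (build GRCm38.p6), because the chains varied together across cells. C1qa was not matched. Only bases upstream of both the RefSeq and the GENCODE start are printed, on the minus strand, at chr4:136886201-136886450 for C1qb and chr4:136893066-136893164 for C1qc. Capitals mark matches on either strand to AGGAAGT, which reads ACTTCCT on the other strand and holds the core that PU.1, a factor of myeloid cells, binds, and to TGCTGA, a binding sequence of Maf factors.
C1qb: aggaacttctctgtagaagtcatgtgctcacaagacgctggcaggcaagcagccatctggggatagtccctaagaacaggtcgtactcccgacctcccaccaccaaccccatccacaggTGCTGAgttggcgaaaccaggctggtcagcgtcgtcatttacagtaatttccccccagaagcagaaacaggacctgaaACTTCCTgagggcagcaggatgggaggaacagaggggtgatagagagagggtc
C1qc: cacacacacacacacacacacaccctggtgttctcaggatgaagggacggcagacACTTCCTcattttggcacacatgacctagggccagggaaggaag
Both windows held 1 match to AGGAAGT, and the C1qb window held 1 to TGCTGA. Of the 32851 promoters of the table, 7.69% had AGGAAGT and 16.1% had TGCTGA in a window of 250 bases, and in 99 bases the shares were 2.65% and 6.43%. These motifs were chosen after the windows had been read, and a match describes letters only.

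The libraries differed in depth. The injured library held 3697992 UMIs, with 500 to 53972 per cell and a median of 1123, and the uninjured library held 87499, with 458 to 11100 per cell and a median of 888. No cell barcode was shared between the libraries. A gene of macrophages in general (Aif1, Cd68, Fcer1g, Tyrobp, Adgre1, Mertk or Fcgr1) had a UMI in 95.6% of injured cells, and in 88.2% of those from the uninjured nerve. One uninjured cell of 11100 UMIs held 10194 UMIs of haemoglobin and none of C1q. It took 11100 of the 87499 uninjured UMIs, so the ratios for all and for deep cells are also given without it.

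All C1q chains were among the most abundant RNAs of the nerve's myeloid cells. By UMIs C1qa, C1qb and C1qc ranked 12, 13 and 18 of the 14303 genes seen in the injured library and 21, 23 and 34 of the 8124 seen in the uninjured library. In CPM, UMIs scaled to a common total of the library, C1qa stood at 7431 (7344 to 7520, 27481 UMIs) after injury and 4789 (4341 to 5270, 419 UMIs) without it. C1qb stood at 7279 (7192 to 7366, 26917 UMIs) and 4320 (3895 to 4778, 378 UMIs). C1qc stood at 5351 (5277 to 5426, 19789 UMIs) and 3143 (2782 to 3537, 275 UMIs). The injured level was thus above the uninjured one for each chain, and the counting intervals did not overlap.

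The ratio of injured to uninjured was 1.55 (1.41 to 1.71) for C1qa, 1.68 (1.52 to 1.87) for C1qb and 1.70 (1.51 to 1.92) for C1qc. For the sum of the chains it was 1.64 (1.54 to 1.74). A gene was called higher at 1.5-fold or more, with 10 CPM added to both levels. By that rule 3 of 3 chains were higher, where 32.8% of the 4021 genes compared (those with a UMI in 10% or more of either library's cells) were also called higher, and 31.2%, 27.3% and 26.7% of them had a larger ratio than C1qa, C1qb and C1qc. Without the haemoglobin-rich cell the ratios were 1.36 (1.23 to 1.496) for C1qa, 1.47 (1.33 to 1.63) for C1qb and 1.49 (1.32 to 1.68) for C1qc. None of the 3 then reached 1.5-fold, where 28.2% of genes did. The difference therefore kept its direction but stood at the size of the call rule, and that single cell settled the call.

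The mean over cells, in which every cell has the same weight, differed somewhat less. Injured cells had 16785 ± 11126 CPM of C1q (SD over 727 cells), and uninjured cells 11662 ± 10516 CPM (SD over 51 cells). The median was 16028.5 CPM (quartiles 7854 and 24299) against 9862 CPM (quartiles 3714 and 16773), and the ranges of 0 to 55609 and 0 to 47897 CPM overlapped almost wholly. With every cell thinned to 500 UMIs (2 uninjured cells had fewer and were dropped), the injured library had 8.37 and the uninjured library 5.57 C1q UMIs per cell, a ratio of 1.502 (1.33 to 1.70). The thinned ratio was 1.29 (1.06 to 1.57) for C1qa, 1.64 (1.34 to 2.04) for C1qb and 1.65 (1.29 to 2.14) for C1qc.

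**Figure D1:**
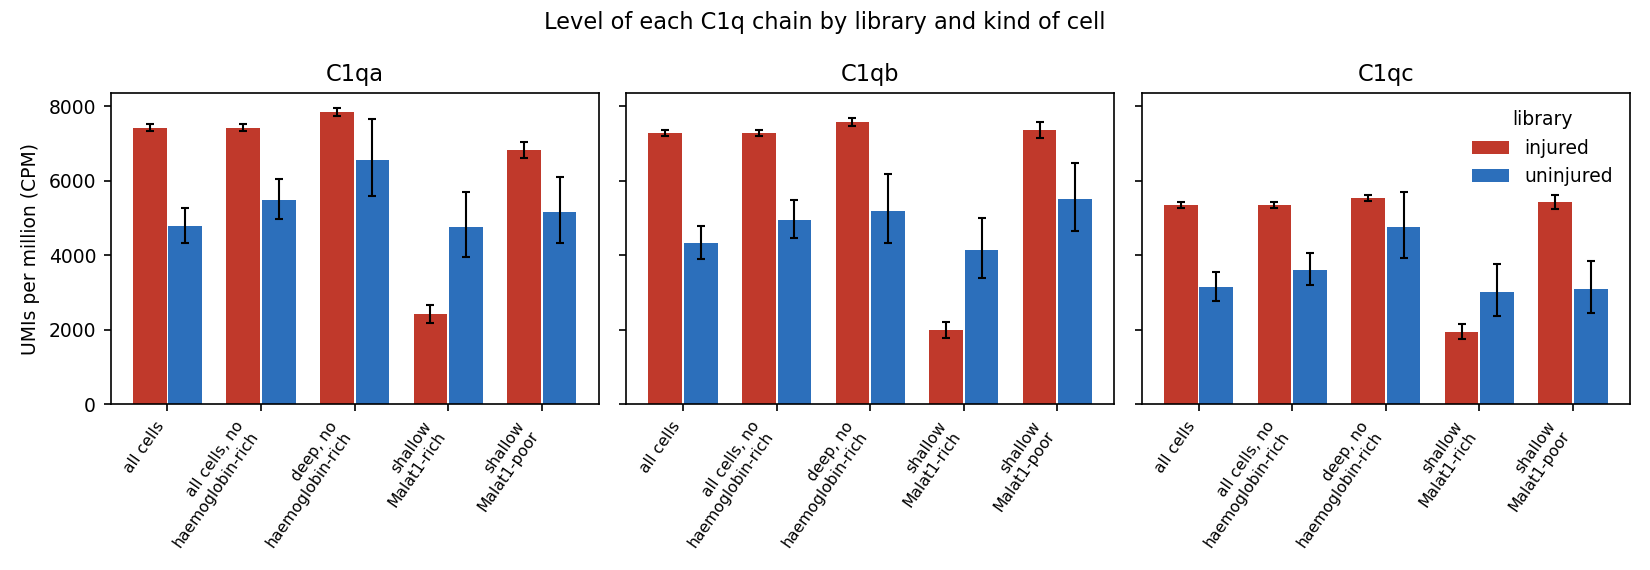
Level of each chain in CPM in the injured and the uninjured library, for all cells, for all and deep cells without the haemoglobin-rich cell, and for shallow cells rich or poor in Malat1. Bars are levels of summed UMIs and lines exact 95% Poisson intervals: injured bars are taller than uninjured ones everywhere except in Malat1-rich cells, where C1qa is at 2412 against 4763 CPM.

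The cells were then divided into kinds, taken from earlier work on the same data. Deep cells had at least 5000 UMIs, and shallow cells were split at 1% of UMIs from Malat1, a nuclear RNA. Deep cells numbered 144 injured and 4 uninjured, Malat1-rich cells 91 and 17, and Malat1-poor cells 492 and 30. Of the shallow cells, 59 from the injured and 1 from the uninjured library had Malat1 shares near that divide, from 0.5% to 2%. The deep cells held 83.5% of injured C1q UMIs and 79.9% of all injured UMIs, and 38.2% and 41.1% in the uninjured library.

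Deep injured cells had 20966 CPM of C1q (20801 to 21132), with cells from 0 to 47935 and a median of 19934. Of the 4 deep uninjured cells, 3 had 15261, 19406.5 and 14361.5 CPM and the haemoglobin-rich one had 0. The 3 lay within the injured quartiles of 15271 and 25890 or just under them, so the groups overlapped. Without the haemoglobin-rich cell the deep ratio was 1.27 (1.15 to 1.40) for the sum, 1.196 (1.03 to 1.40) for C1qa, 1.46 (1.23 to 1.75) for C1qb and 1.17 (0.973 to 1.41) for C1qc. None reached 1.5-fold, where 40.4% of genes were called higher. With that cell the ratio of the sum was 1.84 (1.67 to 2.03), and 3 of 3 chains were called higher, where 49.8% of genes were and 15% were called lower.

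Malat1-poor injured cells had 19614 CPM (19252 to 19981), close to the level of the deep cells, and Malat1-poor uninjured cells had 13757 (12367 to 15261). The ratio was 1.43 (1.28 to 1.59) for the sum, 1.32 (1.11 to 1.58) for C1qa, 1.34 (1.13 to 1.59) for C1qb and 1.76 (1.41 to 2.23) for C1qc. C1qc alone was called higher, 1 of 3 chains, where 47.8% of genes were called higher and 19.8% lower. Transcripts of oligodendrocytes (6 genes, among them Mbp, Mobp, Mog and Mag) stood at 5014 CPM in these cells after injury and at 17842 CPM without it, with 0 to 97179 and 926 to 55227 CPM per cell and all 6 genes seen in both. Median mitochondrial shares were 0.503% and 8.11%. Their part in the ratio was not tested.

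Malat1-rich cells went the other way. The level of C1q was 6344 CPM (5978 to 6727) over 91 injured cells and 11908 CPM (10609 to 13322) over 17 uninjured ones, 1.88-fold lower after injury (1.65 to 2.13). The ratio was 0.506 (0.413 to 0.624) for C1qa, 0.4799 (0.385 to 0.602) for C1qb and 0.647 (0.504 to 0.840) for C1qc. By the rule 3 of 3 chains were lower, where 30.7% of genes were lower and 36.4% higher. The medians over cells were much nearer, at 4047 CPM after injury and 3373 CPM without it, and with equal weight for each cell the means were 5723 ± 5945 and 8077 ± 9201 CPM (SD over 91 and 17 cells). The uninjured sum thus followed a few cells with high levels, up to 30362 CPM, beside many low ones.

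Other measures differed between these Malat1-rich cells. The median mitochondrial share was 10.7% in injured and 3.11% in uninjured cells. At mitochondrial shares of at most 5%, 24 injured cells had 5862 CPM and 10 uninjured cells 11688 CPM. The summed level was thus 1.99-fold lower after injury (1.60 to 2.48). With equal weight for each of these cells the means were nearly equal, at 6830 and 7093 CPM. The injured median was higher, at 5868 against 2992 CPM, and 1 uninjured cell held 93 of the 163 uninjured C1q UMIs. Above 5% the summed level was 1.89-fold lower (1.57 to 2.25), over 67 injured and 7 uninjured cells. Their medians were 3297 and 11204.5 CPM, with ranges of 0 to 29216 and 0 to 27559 CPM. The 7 genes of macrophages in general stood at 2412 CPM after injury (0 to 14371 per cell) and at 3397 CPM without it (0 to 6856 per cell). The 9 genes of microglia (among them P2ry12, Tmem119, Siglech, Sall1, Cx3cr1 and Csf1r) stood at 3774 and 18740 CPM, with 0 to 23520 and 0 to 40444 CPM per cell, and all were seen in both. No border macrophage gene of 7 was seen in these uninjured cells, against 6 in the injured ones, at 437 CPM. The 6 oligodendrocyte genes stood at 2627 CPM after injury (0 to 60945 per cell) and at 7535 CPM without it (1632 to 29412 per cell). Of 5 astrocyte genes Slc1a3 alone was seen without injury, at 3241 CPM (0 to 8257 per cell), and 2 were seen after it, at 488 CPM (0 to 4698 per cell), with Aqp4, Gja1 and Aldoc at 0 in both. T cell genes were at 210 CPM (6 of 6 seen, 0 to 8664 per cell) and 39.0 CPM (1 of 6, 0 to 1198 per cell), and monocyte genes at 159 CPM (4 of 5, 0 to 4147 per cell) and 0. The part of these differences in the C1q ratio was not tested.

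Within the injured library C1q was lower in cells with more Malat1. The Spearman correlation of C1q CPM with Malat1 CPM was -0.50 across 91 Malat1-rich cells, -0.36 across 144 deep cells and -0.15 across 492 Malat1-poor cells. The deep value was -0.29 in the 138 cells with C1q and -0.19 in the 99 cells over 15000 UMIs. These cells share 1 library, and both levels are shares of the same total, so that more of one leaves less for the other. With the mitochondrial share the correlation was between -0.13 and -0.07 in the same classes, and with depth it was 0.07 for the Malat1-rich cells, 0.22 for the deep and 0.24 for the Malat1-poor ones.

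By depth, the injured level of C1q was 13580 CPM in 109 cells under 600 UMIs, 15401 CPM in 218 cells from 600 to under 1000, 17167 CPM in 256 cells from 1000 to under 5000, 17127 CPM in 45 cells from 5000 to 15000 and 21608 CPM in 99 cells over 15000. The uninjured level was 9297, 11502 and 14102 CPM in the 12, 17 and 18 cells of the shallow classes. The ratio lay between 1.22 (1.11 to 1.34), from 1000 to under 5000 UMIs, and 1.46 (1.12 to 1.93), under 600 UMIs. In each of these shallow classes the sum of the chains was higher in the injured library, and by less than 1.5-fold. Single chains differed under 600 UMIs, where the ratio was 0.828 (0.578 to 1.22) for C1qa, 1.97 (1.23 to 3.36) for C1qb and 3.01 (1.501 to 7.06) for C1qc, on 34, 18 and 8 uninjured UMIs. From 5000 to 15000 UMIs, the haemoglobin-rich cell included, the ratio of the sum was 1.501 (1.36 to 1.66). Without that cell the 3 uninjured cells of this class stood at 16508 CPM (14949 to 18186). The injured cells of this class stood at 17127 CPM (16735 to 17526), so the intervals overlapped. The uninjured library had no cell over 15000 UMIs.

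In summed UMIs, most of which came from deep cells in the injured library, the chains stood in nearly the same proportion in both libraries. UMIs from the 3' end count transcripts and are not scaled by length, but how well each transcript is captured can differ between genes, so that shares of C1q UMIs compare cells rather than amounts of chain. C1qa made up 37.0% of injured C1q UMIs (36.7 to 37.4) and 39.1% of uninjured ones (36.2 to 42.1). C1qb made up 36.3% (35.9 to 36.6) and 35.3% (32.4 to 38.2), and C1qc 26.7% (26.4 to 27.0) and 25.7% (23.1 to 28.4). For each chain the injured share lay within the uninjured interval. With equal weight for each cell with C1q the libraries stood further apart. C1qa then made up 33.7 ± 16.8% in injured and 39.5 ± 20.7% in uninjured cells (SD over 702 and 46 cells), and C1qc 28.0 ± 17.1% and 24.1 ± 15.5%. After thinning C1qa was at 34.5% and 40.3%. These gaps were smaller than the spread between cells.

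Shares also moved between kinds of cells. In the injured library C1qa took 37.4% (37.1 to 37.8) in deep cells and 34.8% (33.9 to 35.7) in Malat1-poor cells, and C1qb 36.1% (35.8 to 36.5) and 37.5% (36.6 to 38.4). In Malat1-rich cells C1qa was at 38.01% (35.2 to 40.9), C1qb at 31.3% (28.6 to 34.1) and C1qc at 30.7% (28.0 to 33.5). With equal weight for each cell with C1q, the C1qa share was 36.1 ± 8.28% in deep and 32.6 ± 17.1% in Malat1-poor cells (SD over 138 and 482 cells). The difference was larger than counting error over summed UMIs and smaller than the spread between cells. In the 12 uninjured cells under 600 UMIs C1qa took 34 of 60 UMIs (43.2 to 69.4%), above the 32.1% (28.9 to 35.4) of injured cells of that depth.

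Per cell, the proportion of the chains varied more than counting alone would give. Among the 198 cells with at least 50 C1q UMIs, 193 of them injured, the C1qa share had quartiles of 33.3% and 41.4% around a median of 37.2%. Its SD across the 133 deep injured cells of this set was 6.96 percentage points, where binomial counting alone would give 2.76. The SD was 6.81 against 2.73 for C1qb and 3.81 against 2.51 for C1qc, so C1qc varied least of the chains in these cells. In the 55 Malat1-poor injured cells with as many C1q UMIs the C1qa SD of 5.63 was no larger than the 5.64 of counting, while C1qb had 7.16 against 5.61 and C1qc 5.65 against 5.22.

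C1qa or C1qb was the largest chain in almost every cell. C1qa was largest, ties included, in 107 of the 198 cells, C1qb in 93 and C1qc in 6. The lowest C1qa share was 5.15% (2.09 to 10.3), in a deep injured cell of 33325 UMIs with 7 UMIs of C1qa, 89 of C1qb and 40 of C1qc. The next, 12.9% (6.05 to 23.0), was in a cell with 9, 45 and 16 UMIs. The highest was 53.0% (42.8 to 63.1), in a cell with 53, 26 and 21. The cells with the lowest C1qa share are also described among the other observations.

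**Figure D2:**
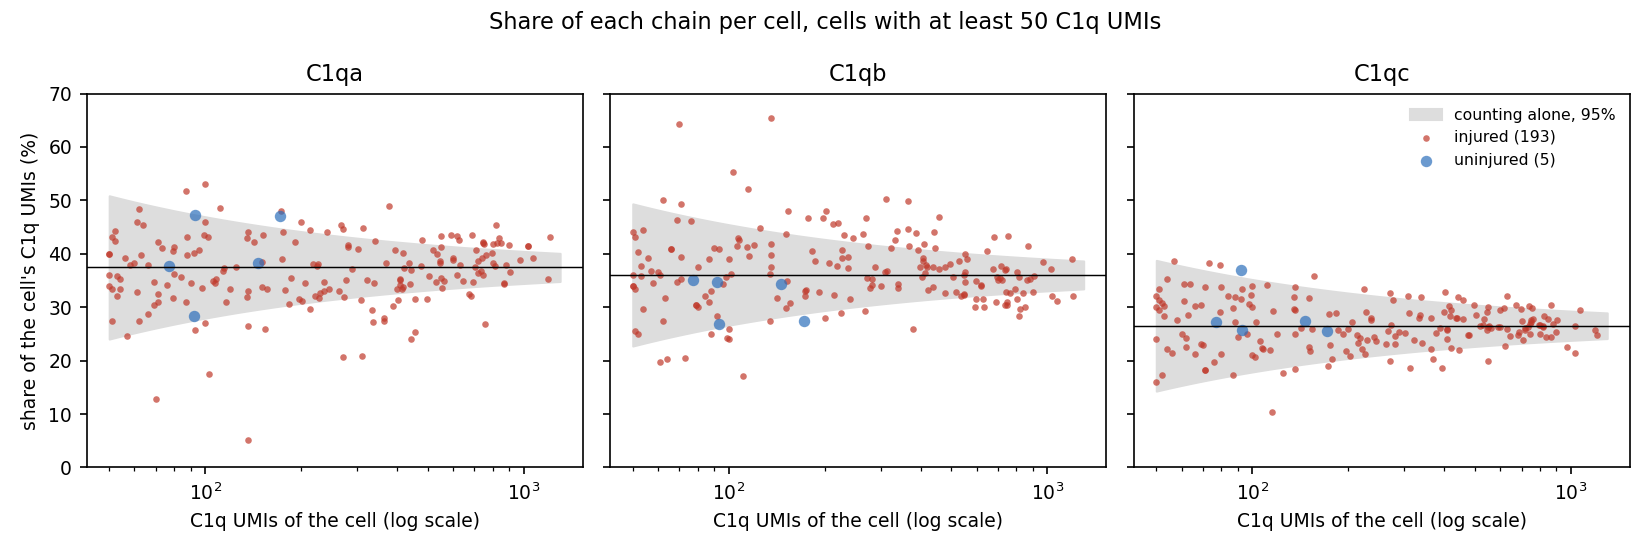
Share of each chain in the C1q UMIs of a cell, in percent, against the cell's number of C1q UMIs on a log axis, for the 193 injured and 5 uninjured cells with at least 50. The line is the share over all these cells and the band the range that counting alone gives in 95% of cells: most cells lie in the band, and single cells with C1qa at 5.15% and 12.9% lie far under it.

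The chains were seen together in most cells, and the share rose with depth. All 3 chains were seen in 579 of 727 injured cells, 79.6%, and in 32 of 51 uninjured cells, 62.7%. In the injured library the share with all 3 was 58.7% under 600 UMIs, 73.4% from 600 to under 1000, 85.2% from 1000 to under 5000, 86.7% from 5000 to 15000 and 98.99% over 15000. Of the 138 deep injured cells with any C1q, 137 had all 3 chains, and the other, a cell of 5602 UMIs, had 3 of C1qb, 3 of C1qc and none of C1qa. No deep injured cell had a single chain, 0 of 144 (0 to 2.53%). All 3 deep uninjured cells with C1q had the 3 chains.

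Thinned to 500 UMIs, all 3 chains were seen in 65.2% of the 727 cells after injury (61.6 to 68.7) and in 42.9% of the 49 cells without it (28.8 to 57.8). These intervals did not overlap, but they count cells of 1 library each, and the libraries differed in their mix of kinds. Among injured cells the thinned share was 80.6% for deep cells. It was 20.9% (13.1 to 30.7) for 91 Malat1-rich and 68.9% (64.6 to 73.0) for 492 Malat1-poor injured cells. Without injury it was 23.5% for 17 Malat1-rich cells and 53.6% for 28 Malat1-poor ones, within intervals of 6.81 to 49.9% and 33.9 to 72.5%. Within either shallow kind the intervals of the libraries thus overlapped. Chain by chain, C1qa had a UMI in 89.1% of cells after injury and in 84.3% without it, C1qb in 90.8% and 80.4% and C1qc in 87.1% and 74.5%, without thinning.

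Across the 144 deep injured cells the levels of the chains rose and fell together. The Spearman correlation was 0.80 for C1qa with C1qb, 0.87 for C1qa with C1qc and 0.85 for C1qb with C1qc. In the 138 cells with C1q it was 0.78, 0.85 and 0.82, so the correlation does not rest on the cells without C1q. It was 0.66, 0.61 and 0.55 across 492 Malat1-poor cells and 0.57, 0.63 and 0.44 across 91 Malat1-rich cells, where counts were few. These are descriptions over cells of 1 library, not replicates.

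**Figure D3:**
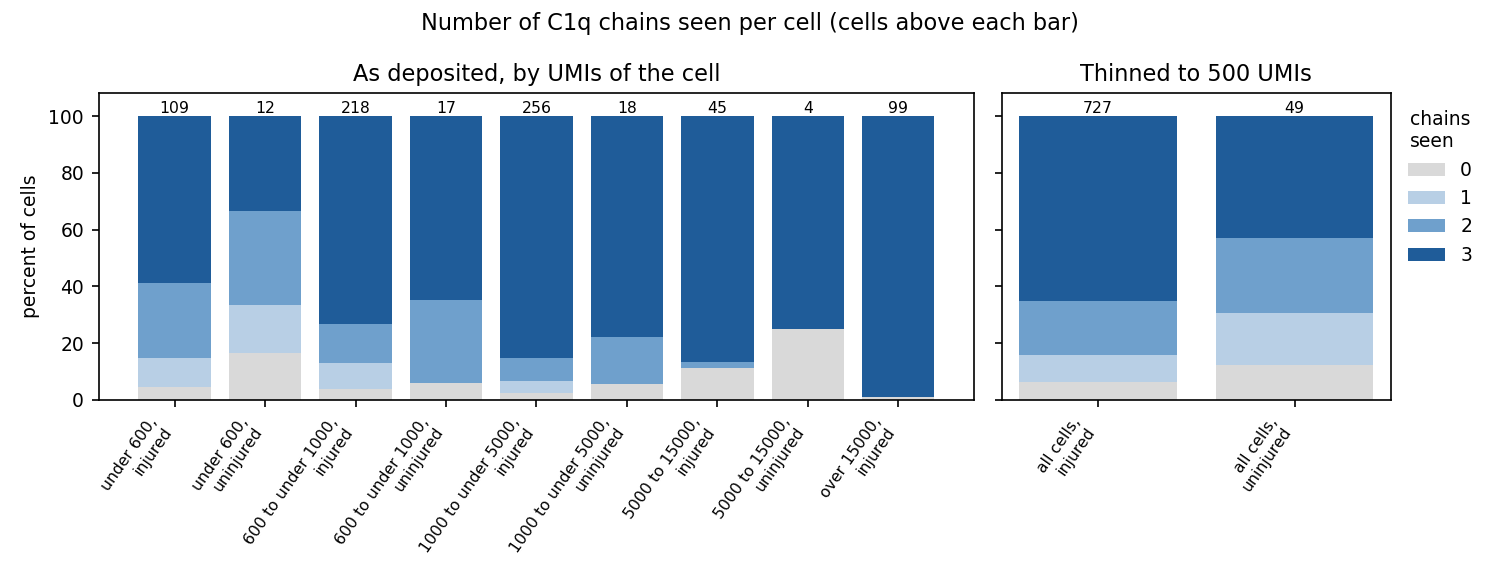
Percent of cells in which 0, 1, 2 or 3 C1q chains were seen, by the cell's total UMIs and library as deposited (left) and with each cell thinned to 500 UMIs (right); numbers above the bars are cells. The share with 3 chains rises with depth to 98.99% of the 99 injured cells over 15000 UMIs, and after thinning it is 65.2% in the injured and 42.9% in the uninjured library.

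Few cells had no C1q UMI. There were 25 among the 727 injured cells, 3.44% (2.24 to 5.03), and 5 among the 51 without injury, 9.80% (3.26 to 21.4). After thinning the shares were 6.19% (4.55 to 8.20) and 12.2% (4.63 to 24.8), and the intervals overlapped at either depth. Among injured cells the share without C1q did not fall steadily with depth. It was 4.59% under 600 UMIs, 3.67% from 600 to under 1000, 2.34% from 1000 to under 5000, 11.1% from 5000 to 15000 (5 of 45) and 1.01% over 15000 (1 of 99).

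All 6 deep injured cells without C1q carried markers of other blood cells. The rule was at least 2 genes of a list seen, and the brackets give the whole lists, not the genes seen. By it 3 of them met the T cell list (Cd3d, Cd3e, Cd3g, Trac, Trbc1 and Trbc2). For 1 it was the NK cell list (Nkg7, Ncr1 and Klrb1c). The other 2 met the dendritic cell list (Flt3, Zbtb46, Xcr1, Cd209a, Ccr7 and Siglecg). Those with T cell genes had 6332, 5639 and 5387 UMIs, with 28, 23 and 24 UMIs of T cell genes. The first of these held 58 and the second 26 UMIs of Il17a, a cytokine gene. The last held 61 of Ccl5, a chemokine gene, and also 9 of Nkg7 from the NK cell list. The cell with NK genes had 5632 UMIs, with 8 of NK genes, none of them Klrb1c, and 25 of Ccl5. It also held 12 UMIs of macrophage genes. Il17a, Ccl5 and the genes of the next sentences outside the lists were looked up after the cells had been seen.

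The cells with dendritic cell genes were deeper. One had 18441 UMIs, the only cell over 15000 without C1q, and held 4 UMIs of Flt3, a receptor of dendritic cells, 1011 of Cd74 and 395 of H2-Eb1, genes of antigen presentation, and 26 of monocyte genes. The other had 12636 UMIs, with 2 of Flt3, 1 of Siglecg, 478 of Cd74 and 282 of H2-Eb1. Neither cell held Cd209a or Ccr7. They also held 56 and 40 UMIs of macrophage genes and 16 and 25 of microglia genes, beside 9 and 3 of dendritic cell genes. A count of 0 allows C1q at up to 163 and 237 CPM in these cells, where the deep injured cells as a whole stood at 20966 CPM. No other deep injured cell lacked C1q, 0 of 138 (0 to 2.64%).

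In all, 5 injured cells carried T cell genes, 1 NK cell genes and 3 dendritic cell genes, and none held a C1q UMI. Most injured cells that met the same rule for other lists did hold C1q. It stood at 18007 CPM in 22 cells by the neutrophil list and 20502 CPM in 22 by the astrocyte list. The neutrophil and the astrocyte list each had 1 cell without C1q. In 6 cells by the fibroblast list C1q stood at 19489 CPM, and in 3 by the monocyte list at 1212 CPM. Among these 3 was the cell of 18441 UMIs without C1q already counted by dendritic cell genes, which held most of their 22281 UMIs. The 2 cells by the red cell list held 8 C1q UMIs. Meeting the rule for a list thus did not by itself mark cells without C1q. Depth in the 6 cells with T or NK genes ranged from 834 to 6332 UMIs, and its median was 5509.5, against 1123 for the whole library. With 0 of 27402 UMIs they allow C1q at up to 109 CPM. The library as a whole stood at 20061 CPM, so the level in lymphocytes, which should not make C1q, was far lower, a value that bears on free RNA in cells of that depth and does not reach the shallowest. The 3 cells with dendritic cell genes had 0 of 33057 UMIs, up to 90.8 CPM. The haemoglobin-rich uninjured cell likewise had 0 of 11100 UMIs, up to 270 CPM.

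The cells without C1q outside the T, NK, dendritic and haemoglobin-rich cells were shallow. They numbered 16 of 718 injured cells, 2.23% (1.28 to 3.59), with a median of 742 UMIs and at most 2352, and 10 of them held a UMI of a macrophage gene. In the uninjured library they numbered 4 of 50 cells, 8.00% (2.22 to 19.2), with a median of 690.5 UMIs and at most 1090, and 1 held a macrophage gene. One of these 4, of 546 UMIs, held 9 UMIs of endothelial genes and met the rule of 2 genes for that list. Of the injured ones 6 were Malat1-rich and 10 Malat1-poor, of the uninjured ones 2 and 2. Near the low end, the deep injured cells with least C1q had 797 CPM (27 UMIs of 33898) and 1071 CPM (6 of 5602).

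**Figure D4:**
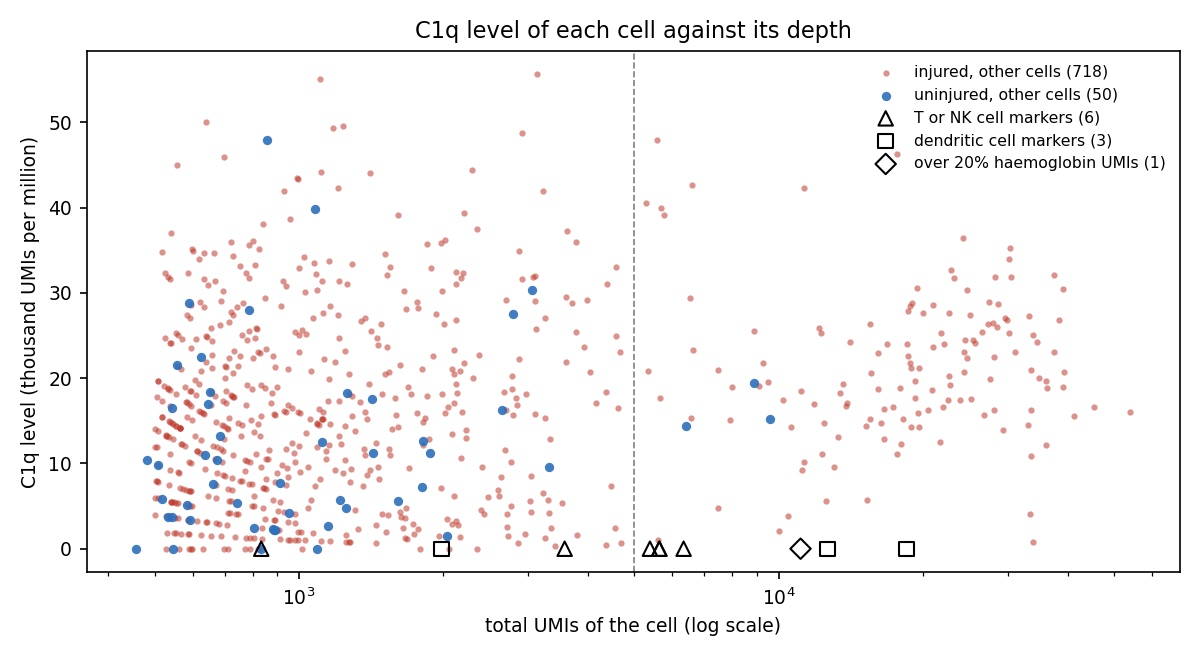
C1q level of each cell, in units of 1000 CPM, against the cell's total UMIs on a log axis, with cells marked that carry at least 2 genes of the T or NK cell or dendritic cell lists or over 20% haemoglobin UMIs. The dashed line is at 5000 UMIs: to its right all 6 injured cells at 0 are marked as T, NK or dendritic, and the 1 uninjured cell at 0 is the haemoglobin-rich one.

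The partners of C1q in its complex were nearly absent from these cells. C1ra, which encodes the protease C1r, had 7 UMIs in the injured and 0 in the uninjured library, beside 74187 and 1072 C1q UMIs. C1s1, for the protease C1s, and the further copies C1rb and C1s2 had none in either library, which allows up to 0.811 CPM after injury and up to 34.3 CPM without it. Serping1, the inhibitor of these proteases, had 2 and 0 UMIs, so that a change after injury was not detectable for these genes. C2, a substrate, had 6 and 3 UMIs and was 21.1-fold lower after injury (3.42 to 98.9), on counts too low for the list below.

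Of 29 listed components, proteases and regulators of the pathway, 5 had a UMI in 5% or more of either library's cells; 4 were lower after injury by 1.5-fold or more, 0 higher and 1 between. Of all 4021 genes compared, 21.8% were lower by that rule, and the median log2 ratio over the 4021 was 0.17. C4b, the substrate of C1s, was 12.2-fold lower (7.57 to 19.1), with 24.3 CPM after injury and 297 without. Clu, an inhibitor of the late pathway, was 13.2-fold lower (3.78 to 37.7) on 16 and 5 UMIs. C3 had 64 and 3 UMIs and a ratio of 0.505 (0.165 to 2.51), an interval that includes no difference. In summed UMIs C4b and Clu thus lay below the uninjured level while C1q lay above it, in the same libraries. C4b had a UMI in 10.2% of injured and 7.84% of uninjured cells, and Clu in 2.20% and 5.88%. The 26 uninjured UMIs of C4b and the 5 of Clu thus came from few cells, and the intervals take UMIs as independent counts. Clu, C4b and C3 are also made by astrocytes and oligodendrocytes, and the 6 oligodendrocyte genes stood at 1142 CPM (0 to 97179 per cell) after injury and at 8160 CPM (523 to 55227 per cell) without it, all seen in both; their part was not tested.

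Of 14 listed genes for binding or clearing what C1q marks, 8 were seen in enough cells; 6 were higher, none were lower and 2 fell between, where 32.8% of all genes compared were higher. Their median log2 ratio was 0.79. Itgax and C5ar1 are counted as higher on 1 uninjured UMI each. Without the haemoglobin-rich cell 5 were higher, where 28.2% of all genes compared were. With 50 CPM added in place of 10, 4 were higher, and the share over all genes was not computed. Itgb2, a chain of the complement receptors CR3 and CR4, had a ratio of 2.35 (1.19 to 5.46), and C3ar1, the receptor of C3a, one of 2.43 (1.17 to 6.06). Lrp1, a clearance receptor, had a ratio of 1.73 (1.10 to 2.88), at 375 and 217 CPM. Calr, for calreticulin, which binds the stalk of C1q, was at 364 and 400.0 CPM, a ratio of 0.91 (0.651 to 1.31), and Itgam, the other chain of CR3, at 132 and 126 CPM. C1qbp, which encodes a protein that binds the C1q head, had a ratio of 1.63 (0.691 to 5.05) on 344 and 5 UMIs. Of 24 listed relatives with a C1q-like domain, 21 were in the table and 1, Emilin2, was seen in enough cells, with 154 injured UMIs and 1 uninjured UMI.

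Finally, the genes whose level was most like that of C1q across the 144 deep injured cells were taken by Spearman correlation, among 2532 genes seen in at least 50% of these cells. The median correlation over these genes was -0.01. Tyrobp, the signalling adaptor of microglial receptors, was highest at 0.75 (97.9% of these cells, 5068 CPM), followed by Trem2, a lipid-sensing receptor that signals through it, at 0.67, and Grn, for the lysosomal protein progranulin, at 0.66. The lysosomal protease genes Ctsa, Ctsz and Ctsd were at 0.66, 0.64 and 0.62, and Hexa, for a subunit of the lysosomal hexosaminidases, at 0.61. The membrane protein genes Itm2b and Itm2c were at 0.66 and 0.60, and Syngr1 at 0.59. Lowest were Pim1, a kinase gene, at -0.42, Mbnl1 at -0.37, Slk, Rsrp1 and Malat1 at -0.36.

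The likeness was still there without the cells that lack C1q. Across the 138 deep cells with C1q the 10 genes had correlations of 0.54 to 0.72, and 9 of the 10 were again among the 10 highest. Across the 99 cells over 15000 UMIs the range was 0.47 to 0.69, with 9 of 10 shared. Across the 492 Malat1-poor injured cells it was 0.21 to 0.68, with 4 shared, and Ctss, a further protease gene, was highest at 0.69. Across the 51 uninjured cells it was 0.14 to 0.55, with 3 shared. By Pearson correlation of log2 CPM across the 144 cells it was 0.56 to 0.88, with 5 shared, and Trem2 was highest. Most of the 10 were thus kept for ranks in deep injured cells, but their order moved. Over 15000 UMIs Grn at 0.69 stood above Trem2 at 0.60, and Ctsa at 0.55 stood under Ctsd at 0.56. The 138 and the 99 cells are part of the 144 from which the 10 were picked, so they are no separate check. In the 138 cells the 7 macrophage genes as a sum had a correlation of 0.73, the 9 microglia genes 0.48 and the 7 border macrophage genes 0.17. P2ry12 and Tmem119, genes of resting microglia, had 0.15 and 0.05, and Ccr2, a receptor of monocytes, had -0.24 with UMIs in 8 cells.

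**Figure D5:**
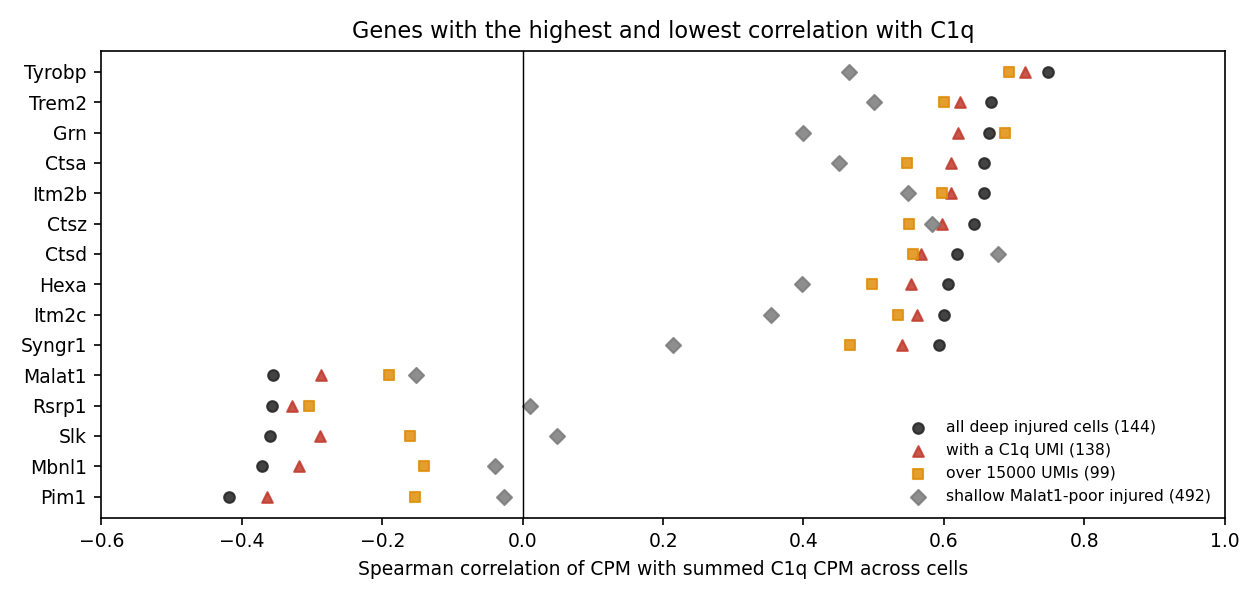
Spearman correlation of each gene's CPM with summed C1q CPM across cells, for the 10 genes at the top and the 5 at the bottom of the order in the 144 deep injured cells; symbols give the value in all deep injured cells, those with a C1q UMI, those over 15000 UMIs and shallow Malat1-poor injured cells. The 10 upper genes stay above 0.21 in each set of cells, while the 5 lower genes move toward 0 in Malat1-poor cells.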

How the data were processed

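Single-cell RNA of 2 optic nerve libraries, 1 injured and 1 uninjured, was captured with 10x Genomics droplets. The authors deposited a table of raw UMI counts, whole numbers with genes in rows and cells in columns, not normalized, with a line that names each cell's condition; per the submitters' processing notes reads were handled with Cell Ranger 1.3, bcl2fastq 2.17.1.14 and Seurat 4.0.3 on build mm10. Which annotation release was counted is not given here. Per the design text cells with 200 to 6500 genes were kept, and the 778 cells of the table hold 226 to 6089. Samples were grouped by the labels' titles.

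Levels are summed UMIs as CPM, with exact intervals that cover counting error only; log2 ratios add 10 CPM. A count of 0 is read as up to 3 counts. Members of gene lists needed a UMI in 5% or more of either library's cells. Depth was unequal, so cells were also thinned to 500 UMIs. No doublet caller was run and doublets were not removed. Calls, intervals and correlations were tested on simulated data. The chains, kinds of cells and gene lists were chosen with earlier results of these data known. Named genes are the chains, measured list members and the 10 genes most and 5 least correlated with C1q, without mitochondrial, ribosomal and predicted genes; genes outside this rule are named as such or serve as markers. Some members of the lists are counted but not reported by name here. Promoters come from RefSeq. Alternatives were equal weights, thinning, other pseudocounts, divides and totals, and cells left out. Python 3.11.15, numpy 2.4.6, scipy 1.17.1 and pandas 2.3.3 were used.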

Additional observations from a re-analysis of the deposited data

Results flagged for a closer look

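The ratio of injured to uninjured C1q lay on opposite sides of 1 in different kinds of cells, with counting intervals that excluded 1 on both sides. For the sum of the chains it was 1.43 in Malat1-poor cells, 1.27 in deep cells without the haemoglobin-rich cell and 0.533 in Malat1-rich cells. The deep injured cells include 99 over 15000 UMIs, a depth that no uninjured cell had. From 5000 to 15000 UMIs the levels were close, at 17127 CPM after injury and 16508 CPM in the 3 uninjured cells. By kind, in the order Malat1-poor, deep and Malat1-rich, C1qa had ratios of 1.32, 1.196 and 0.506, and C1qb 1.34, 1.46 and 0.4799. C1qc had 1.76 in Malat1-poor and 0.647 in Malat1-rich cells. In Malat1-rich cells the median over cells ran the other way, at 4047 CPM after injury and 3373 CPM without it, and 3 of the 17 uninjured cells held 93, 77 and 43 of the 305 C1q UMIs. Each kind was 1 library per condition, so the difference between kinds was not tested.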

How the results depend on the processing

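The log2 ratio of summed C1q was 0.71 and stayed above 0 in each alternative run. It was 0.53 with equal weight for each cell, 0.59 after thinning, 0.57 without the 5% deepest cells, 0.52 without the haemoglobin-rich cell, 0.80 without the cell with most C1q UMIs of each library and 0.42 with haemoglobin, mitochondrial, ribosomal protein and Malat1 UMIs left out of the total. The pseudocount moved it by less than its counting interval. In deep cells it was 0.88, and 0.72 with deep cells from 3000 UMIs, 0.34 without the haemoglobin-rich cell and 0.73 with equal weights. With deep cells from 10000 UMIs the only uninjured cell was the haemoglobin-rich one, and no value was computed. In Malat1-rich cells it was -0.91, and -1.30 with the divide at 2%, -0.53 with deep cells from 10000 UMIs and -0.50 with equal weights. In Malat1-poor cells it was 0.51, and 0.36 with deep cells from 3000 UMIs. The causes of these moves were not tested beyond the cells or UMIs each alternative leaves out. The injured C1qa share of 37.0% was 33.7% with equal weights, 34.5% after thinning and 36.6% without the 5% deepest cells, where the uninjured share of 39.1% was 39.5%, 40.3% and 37.4%. The injured share of cells without C1q was 6.19% after thinning, 7.15% with at most 1 UMI and 2.23% without T, NK and dendritic cells. The share with all 3 chains was 65.2% (injured) and 42.9% (uninjured) after thinning, and 88.8% and 77.3% in cells with at least 1000 UMIs. Of the pathway genes 1 of 5 was higher with equal weights, and with no minimum of cells 2 of 18 were higher and 8 of 18 lower. Of the binding genes 1 of 8 was lower with equal weights and 1 of 12 with no minimum. Of the relatives 0 of 1 was higher with a pseudocount of 50 CPM, and 1 of 10 was lower with no minimum. The genes added with no minimum had a UMI in under 5% of the cells of both libraries. Shares over all genes were not computed for these settings. Values without the haemoglobin-rich or other cell types by kind, by mitochondrial share, and with equal weights by kind, were chosen after the data were seen. No paired analysis was possible because each group has 1 library. The uninjured library, with 1072 C1q UMIs in 51 cells, limits each ratio, and its cell with most C1q held 172 of them (16.0%).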

Other observations

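Cells with little C1qa for their C1q, chosen after their values were seen, were not alike in other genes. The cell with 7 C1qa UMIs of 136 C1q UMIs held 58 UMIs of Trem2 and 1 of Cd74. The cell with 9 of 70 held 849 of Cd74 and none of Trem2, and the cell with 18 of 103 held 346 of Cd74 and 10 of Trem2. The 3 had C1q at 4081, 5589 and 9222 CPM, all under the lower quartile of 15271 CPM of the deep injured cells. The cells with the highest C1qa shares, 53.0%, 51.7% and 48.9%, had 17709, 5702 and 19667 CPM.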
